A study of Mus musculus with 2 samples.

Results

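10 heat shock protein and chaperone genes were followed through 2 single-cell libraries of immune cells from mouse melanoma. The members are 10 of the 32285 genes counted and were taken by symbol, all 10 being present in both libraries. They are Hspa1a, Hspa1b, Hspb1, Hsph1, Dnajb1, Dnaja1, Hspa8, Hsp90aa1, Hspd1 and Hspe1. B16-F0 is a transplantable mouse melanoma line, and CD45+ DAPI- cells, living leukocytes, had been sorted from its tumours. 1 library came from wild-type (WT) and 1 from knockout (KO) mice, and the labels name neither the deleted gene nor the age, strain or number of the mice. The labels call the cells TIL-Treg, but the stated sort takes every living leukocyte, and 13 classes of immune cell could be gated. With 1 sample per group there is no test. A difference between genotypes cannot be told apart from one between libraries, and each interval in brackets is a 95% interval that covers counting error only.

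Heat shock proteins are molecular chaperones that hold unfolded proteins and help them to fold. HSP70 proteins bind short exposed stretches of a client, J-domain proteins deliver clients and start the HSP70 cycle, and HSP110 proteins exchange the nucleotide that resets it. HSP90 takes over clients such as kinases and steroid receptors, small heat shock proteins hold clients in a soluble state, and HSP60 with its lid folds proteins inside mitochondria. Heat, oxidation and handling of tissue are known to induce several of these genes through heat shock factor 1, which binds alternating GAA and TTC units in their promoters.

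Upstream sequence is shown for the inducible HSP70 pair and for Hspb1, because these 3 genes carried the largest differences between libraries. The stretches are the 250 bases before the transcription start, from RefSeq on GRCm38.p6, with the pair motif of heat shock elements in capitals.

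Hspa1a, chr17:34972157-34972406, minus strand: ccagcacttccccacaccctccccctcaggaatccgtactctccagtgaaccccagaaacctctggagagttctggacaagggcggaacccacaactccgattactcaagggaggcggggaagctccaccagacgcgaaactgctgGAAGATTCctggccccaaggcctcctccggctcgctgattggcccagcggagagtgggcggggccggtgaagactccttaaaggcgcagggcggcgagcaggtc
Hspa1b, chr17:34959239-34959488, minus strand: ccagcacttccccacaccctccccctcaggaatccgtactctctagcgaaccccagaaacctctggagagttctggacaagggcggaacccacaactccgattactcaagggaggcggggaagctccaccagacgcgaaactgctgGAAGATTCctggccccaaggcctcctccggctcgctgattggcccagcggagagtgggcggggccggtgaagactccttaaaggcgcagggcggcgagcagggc
Hspb1, chr5:135887669-135887918, plus strand: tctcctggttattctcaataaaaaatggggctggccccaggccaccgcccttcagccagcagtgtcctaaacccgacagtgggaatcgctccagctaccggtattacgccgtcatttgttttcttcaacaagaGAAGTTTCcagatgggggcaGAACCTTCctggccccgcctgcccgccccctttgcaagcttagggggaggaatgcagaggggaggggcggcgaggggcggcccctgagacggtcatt

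The Hspa1a and Hspa1b stretches were 98.8% identical and held the same element at the same distance, 104 bases before the start. The first search was for 3 alternating units (GAANNTTCNNGAA or TTCNNGAANNTTC, which cover both strands) and found them in 2 of the 8 members with an entry, Hspd1 and Hspe1, against 0.514% of 27025 genes. The pair motif (GAANNTTC or TTCNNGAA, each its own reverse complement and part of the longer motif) was searched afterwards, because the first search had found nothing in the inducible members. It lay upstream of 7 of the 8 members, all but Dnajb1, of 14.5% of all genes and of 11 of the 74 listed other chaperone genes with an entry. Hspd1 and Hspe1 point away from each other and share their element, which lies between a RefSeq start of each and inside the longest GENCODE extent of Hspd1. It is shown on the strand of Hspe1 with the alternating units in capitals.

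Hspd1 and Hspe1, chr1:55088053-55088082, plus strand: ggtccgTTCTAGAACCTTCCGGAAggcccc

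The wild-type library held 98438084 UMIs (unique molecular identifiers, which count captured RNA molecules) over 11432 barcodes and the knockout library 112544655 over 11398, of which 11153 and 11131 cells were kept, with 42 barcodes in both. Cells were gated by lineage genes, 1706 and 1646 cells that met the gates of more than 1 lineage were left out, and 9 classes had at least 100 cells in both libraries. Each kept gate had at least 4 of its 5 check genes in 10% of cells or more. Foxp3 was not used for the Treg gate and stood at 130.6 CPM in WT and 31.98 in KO. CPM, the level used throughout, is UMIs of a gene per 1000000 UMIs of the class. A gene counts as higher or lower where KO and WT differ by at least 1.5-fold with an interval that excludes equality and at least 20 UMIs were counted. This is a threshold on size only.

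Of 90 pairs of member and class, 86 were measured, 13 were higher and 8 lower in the knockout library, beside 4.15% and 3.5% of all pairs of measured gene and class. The higher calls lay mostly in CD8, CD4 and Treg gates, and the lower calls mostly in gamma-delta T cells and type 2 conventional dendritic cells (cDC2). In 7 of the 21 calls 1 cell held at least 50% of a library's UMIs. Leaving out the 1 cell with the most UMIs of the gene from each library, a step added after the data were seen, kept all 13 higher calls and lost 7 of the 8 lower ones. It left 18 higher and 1 lower over all pairs. The wild-type library had fewer cells in every compared class but B, so the step took a larger share of its cells. In KO CD8 T cells the top cells of Hspa1a and Hspa1b differed, and each stayed in for the other gene. Leaving out the 1% of cells with the highest member share left 17 higher and 2 lower, and the CD8 calls of Hspa1a and Hspa1b were lost. The members were chosen with earlier results of these libraries known, so these counts describe them and support nothing.

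Hspa1a (chr17:34969190-34972156, minus strand) and Hspa1b (chr17:34956436-34959238, minus strand) encode the same inducible HSP70 and lie 9951 bases apart. Their transcripts are 85.5% identical and the last 300 bases 52.8%, so reads from the near-identical stretches cannot be assigned, the split between the genes is uncertain, and their sum is given too. The sum stood at 19.4 CPM in WT and 73.4 in KO CD8 T cells (log2 KO over WT 1.92 [1.73, 2.12]), at 731.6 and 642.4 in macrophages (-0.19 [-0.26, -0.12]) and at 518.3 and 735.8 in monocytes (0.51 [0.44, 0.57]). The gene model Gm20481 overlaps Hspa1a on the other strand. Among the 9 compared classes both genes were most abundant in the macrophage, monocyte and cDC2 gates of either library. In wild-type cDC2 a single cell held 394 Hspa1a and 240 Hspa1b UMIs of 786 over both genes, so the rank of that gate rests on it. Hspa1a stood at 493.9 CPM in WT and 445.2 in KO macrophages, at 355.1 and 474.3 in monocytes and at 271.0 and 112.6 in cDC2. No lymphocyte gate exceeded 64.8 CPM in either library. In the wild-type library macrophages, monocytes and cDC2 had intervals apart from each other, while in the knockout library monocytes and macrophages overlapped. In WT the gates below them were gamma-delta T, B, CD4 T, Treg, NK and CD8 T cells in falling order, and neighbours in that order overlapped between gamma-delta T and B and between CD4 T and Treg cells. In KO the order below cDC2 was CD4 T, B, CD8 T, Treg, NK and gamma-delta T cells, and CD4 T, B and CD8 T cells overlapped as neighbours, as did NK and gamma-delta T cells.

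**Figure D1:**
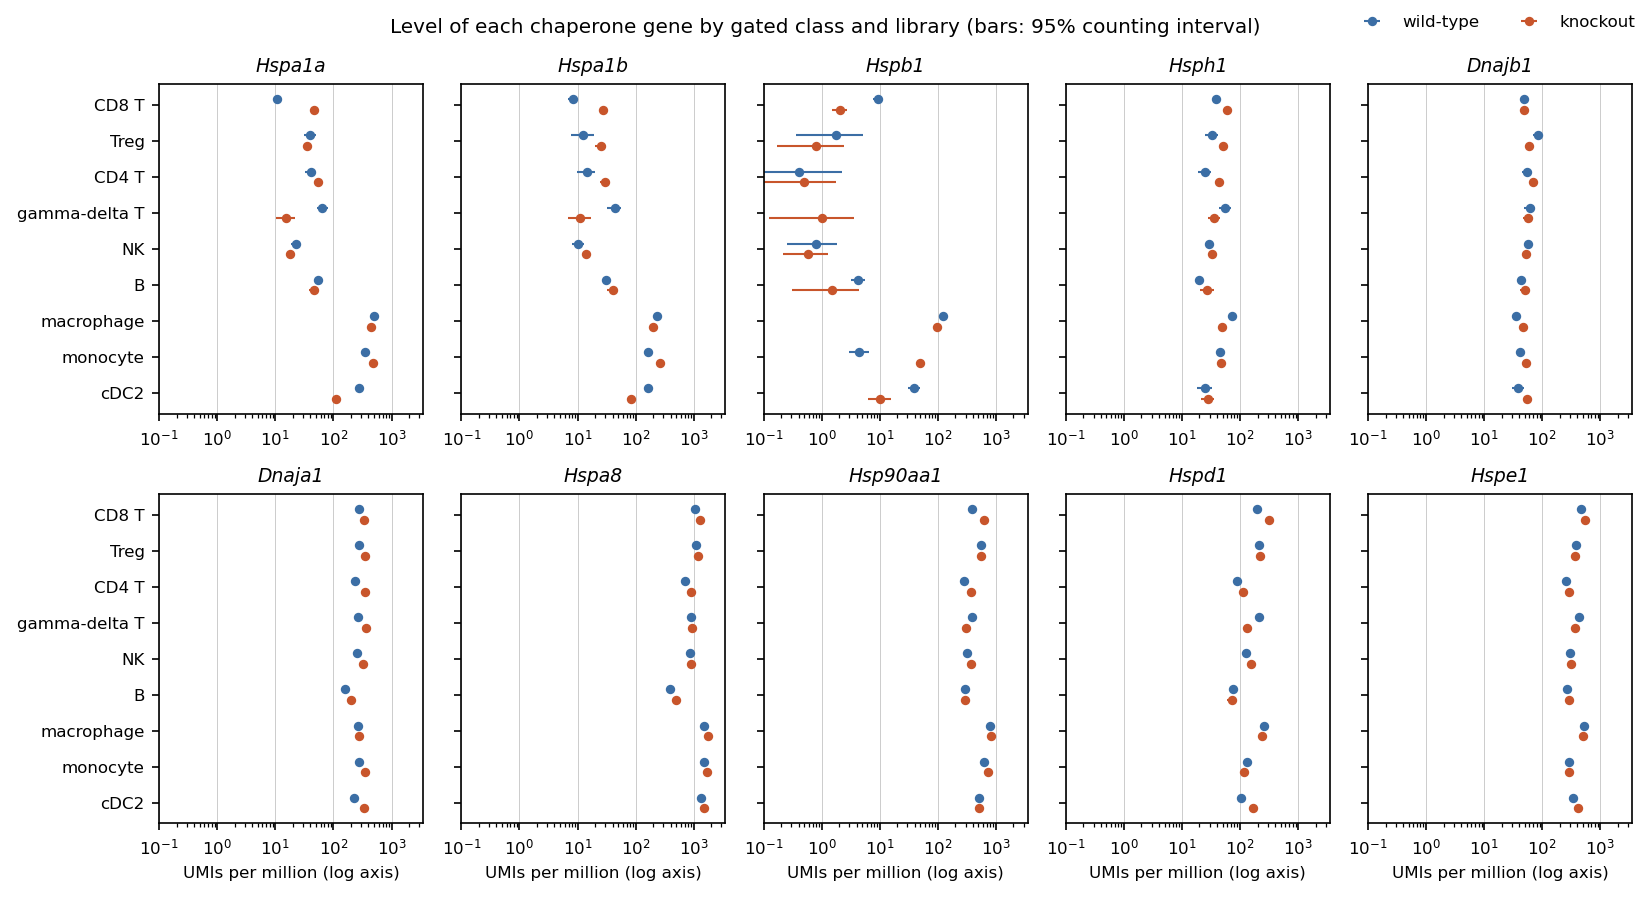
Level of each of the 10 genes in 9 gated classes, in CPM on a log axis, for the wild-type and the knockout library with 95% counting intervals. Hspa1a and Hspa1b stand highest in the macrophage, monocyte and cDC2 gates, with most of their wild-type cDC2 UMIs in a single cell. Hspa8 is lowest in B cells, and Hspb1 in wild-type gamma-delta T cells is at 0 and is not drawn.

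Hspa1a was counted in CD8 T cells with 137 UMIs (10.88 CPM) in WT and 1023 UMIs (45.6 CPM) in KO, a log2 ratio of 2.07 [1.81, 2.34]. Hspa1b stood at 8.50 and 27.8 CPM, log2 1.71 [1.41, 2.02]. Over all genes measured in this class 7.39% were higher and 4.32% lower by the same rule, against 5 higher and 1 lower of the 10 members. In KO 1 cell held 32.7% of the Hspa1a and another 38.0% of the Hspa1b UMIs. Without the cell with the most UMIs the ratios were 1.85 and 1.16. Without the 1% of cells with the highest member share they were 0.49 [0.17, 0.82] and 0.53 [0.13, 0.95], under the size rule. With Leiden clusters without two-lineage cells in place of the gates Hspa1a was 0.34 [0.14, 0.54]. The Hspa1a call held in 10 of 14 settings (lowest 0.22) and the Hspa1b call in 11 (lowest 0.48). The difference in these sums thus lay largely in few cells of the knockout library.

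The CD4 and Treg gates had smaller differences. Hspa1b stood at 14.3 CPM in WT and 29.7 in KO CD4 T cells (log2 1.06 [0.50, 1.64]) and at 12.4 and 25.2 in Treg cells (1.02 [0.33, 1.78]). Over all genes 5.55% were higher and 1.93% lower in CD4 T cells and 2.69% and 2.35% in Treg cells, where 2 members were higher and 0 lower in each. Hspa1a differed by less, at 40.4 and 55.0 CPM in CD4 T cells (0.44) and 39.6 and 35.5 in Treg cells (-0.16). In wild-type Treg cells 1 cell held 61.2% of the Hspa1a UMIs, and without the top cells the ratio was 0.87 [0.24, 1.55], past the size rule in the other direction.

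In gamma-delta T cells both genes were lower in KO. Hspa1a stood at 64.8 CPM (79 UMIs) in WT and 15.1 (30 UMIs) in KO, log2 -2.10 [-2.76, -1.48]. Hspa1b stood at 43.5 and 11.1 CPM, log2 -1.97 [-2.76, -1.23]. A single wild-type cell held 60.8% of the Hspa1a and 64.2% of the Hspa1b UMIs. Without the top cells Hspa1a was -1.49 [-2.42, -0.61] and Hspa1b -0.87 [-1.90, 0.15], and without the 1% of cells with the highest member share Hspa1a was 0.62 [-0.49, 1.84]. Of 9 measured members 0 were higher and 4 lower here, against 2.68% and 2.78% of all genes.

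The cDC2 values rest on 1 cell as well. Hspa1a stood at 271.0 CPM in WT and 112.6 in KO (log2 -1.27 [-1.49, -1.04]), and Hspa1b at 166.4 and 82.3 (-1.02 [-1.29, -0.74]). A single wild-type cell with 394 Hspa1a and 240 Hspa1b UMIs held 80.9% and 80.3% of them. Without the top cells both ratios turned, to 0.82 [0.46, 1.20] and 0.95 [0.50, 1.42]. Of the 10 members 2 were higher and 3 lower, against 4.9% and 2.59% of all genes.

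NK cells, B cells and macrophages had no member past the size rule in either direction. Over all genes 2.29% were higher and 1.5% lower in NK cells, 4.85% and 7.53% in B cells, and 2.85% and 3.52% in macrophages. In macrophages Hspa1a differed by -0.15 [-0.24, -0.06] and Hspa1b, at 237.8 and 197.2 CPM, by -0.27 [-0.40, -0.14]. In NK cells Hspa1a, at 22.3 and 17.8 CPM, differed by -0.32, but 1 wild-type cell held 61.3% of its UMIs and the ratio without the top cells was 0.76 [0.30, 1.23]. The macrophage direction depended on the cells used. Thinned to 2000 UMIs the 2 ratios were 0.05 and 0.00, and without cycling cells 0.23 [0.12, 0.34] and 0.11. Hspa1b stood at 163.2 CPM in WT and 261.6 in KO monocytes, log2 0.68 [0.57, 0.79], and Hspa1a differed by 0.42 [0.34, 0.49]. Monocytes had 2 of 10 members higher and 0 lower, against 3.52% and 4.37% of all genes.

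**Figure D2:**
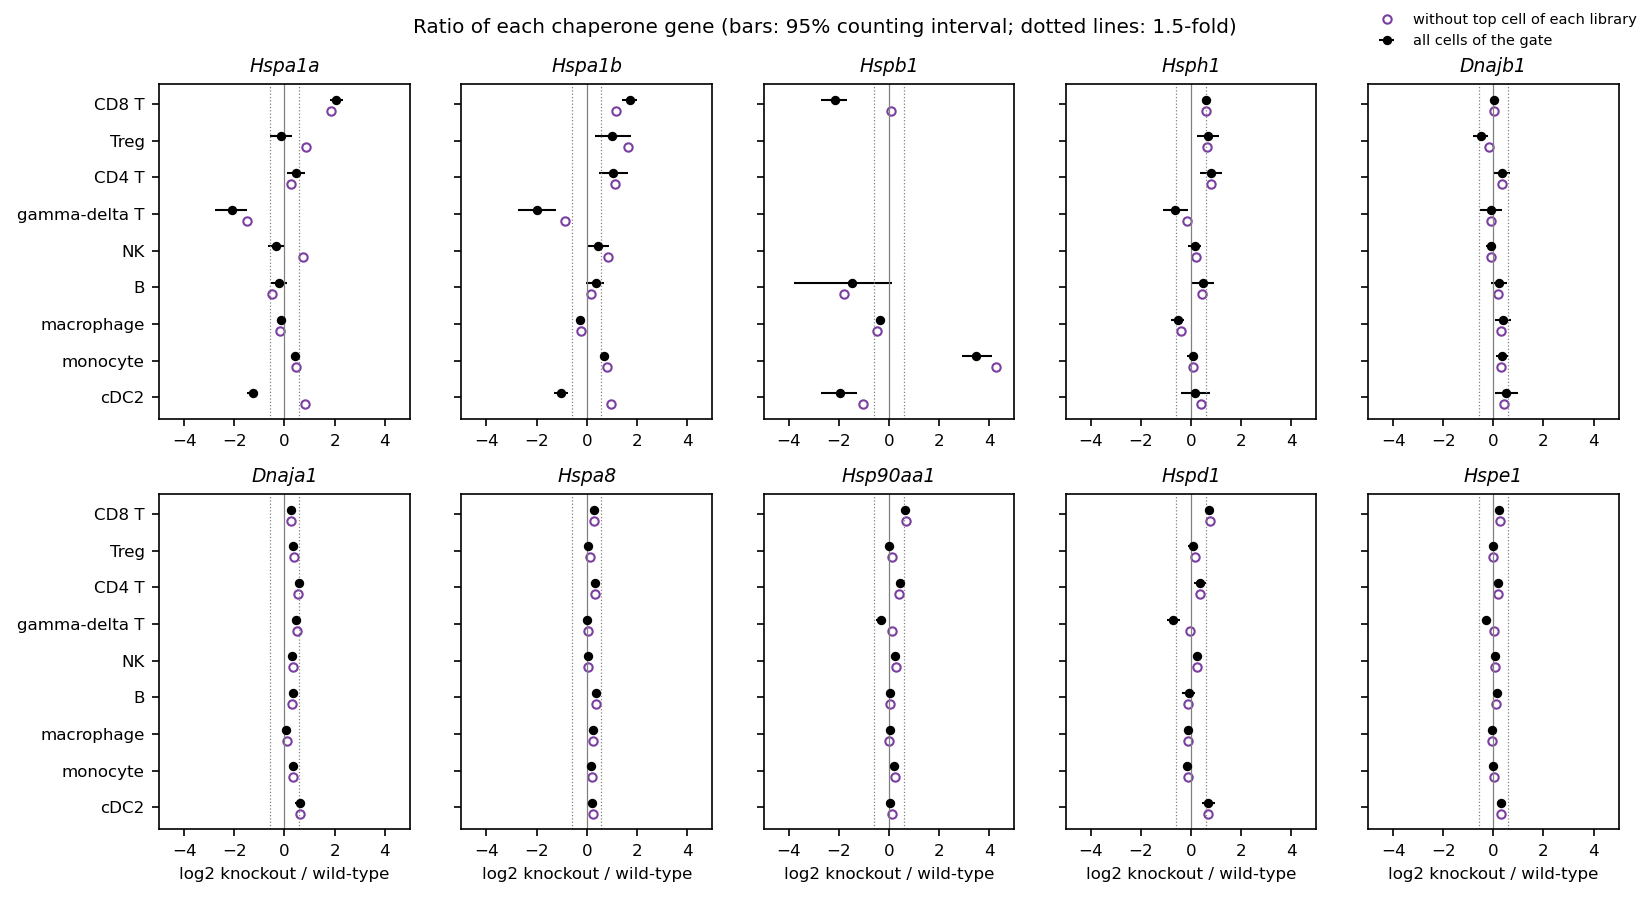
Log2 ratio of knockout over wild-type level for each gene and class. Black points use all cells of the gate with 95% counting intervals, open points leave out the cell with the most UMIs in each library, and dotted lines mark 1.5-fold; pairs with under 20 UMIs are not drawn. The negative Hspa1a and Hspa1b ratios of cDC2 move above 0 without those cells, whereas the CD8 T ratios stay above 1.5-fold. Without the 1% of cells with the highest member share, not drawn, the CD8 T ratios were 0.49 and 0.53, under 1.5-fold.

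The share of cells with a Hspa1a UMI, like the level, was higher in macrophages than in CD8 T cells. After thinning every cell to 2000 UMIs, a Hspa1a UMI was found in 22.6% of WT and 25.5% of KO macrophages and in 1.05% and 2.12% of CD8 T cells, with 0 and 2 and with 7 and 11 shallower cells left out. In Treg, NK, B, macrophage and cDC2 gates the thinned share was higher and the CPM lower in KO, so no order between the libraries is read from these shares. Unthinned shares were 31.1% and 36.3% in macrophages, at median depths of 15252 and 12414 UMIs, and 2.93% and 5.37% in CD8 T cells, at 7010.5 and 7039. No gated class should lack these genes, so the lowest class serves as the only background, and the shares of CD8 T and NK cells (1.19% and 1.62% thinned in NK cells, with 4 and 16 left out, and 2.74% and 3.06% unthinned at 5176.5 and 4632 UMIs) cannot be told apart from free RNA in the droplets by this measure alone.

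Few cells carried most of these molecules. A cell was called Hspa1-high at 1000 CPM or more over both genes with at least 3 UMIs, a cut set after the data were seen. Such cells made up 1.17% [0.931, 1.46] of WT and 1.12% [0.864, 1.42] of KO lymphocytes, 80 of 6821 and 66 of 5916 cells. In macrophage and monocyte gates they made up 13.7% [11.3, 16.3] and 16.7% [14.7, 18.8], 107 of 783 and 227 of 1360 cells. Macrophages had 18.4% and 17.8%, monocytes 11.9% [9.37, 14.9] and 16.3% [14.1, 18.7], and CD8 T cells 0.698% and 1.10% with overlapping intervals. B cells were 3474 of the WT and 420 of the KO lymphocytes, so the pooled lymphocyte shares are not compared between libraries. By gate, Treg cells had 1.20% and 2.31%, CD4 T cells 1.28% and 1.59%, and NK cells 0.274% and 0.467%. Shares were 1.61% and 2.14% in B cells and 1.64% and 1.18% in gamma-delta T cells. Within each lymphocyte gate the intervals of the libraries overlapped. High cells of the CD8 gate held 50.8% of the pair's UMIs in WT and 83.9% in KO, and in macrophages 94.9% and 89.0%. Some cells lay within 2-fold of the cut, 11 and 16 in CD8 T cells and 19 and 36 in macrophages. The median mitochondrial share of high cells was 3.05% and 3.37% in CD8 T cells and 2.53% and 2.75% in macrophages, against 3.41% and 3.16% and 2.36% and 2.42% over the whole gates.

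**Figure D3:**
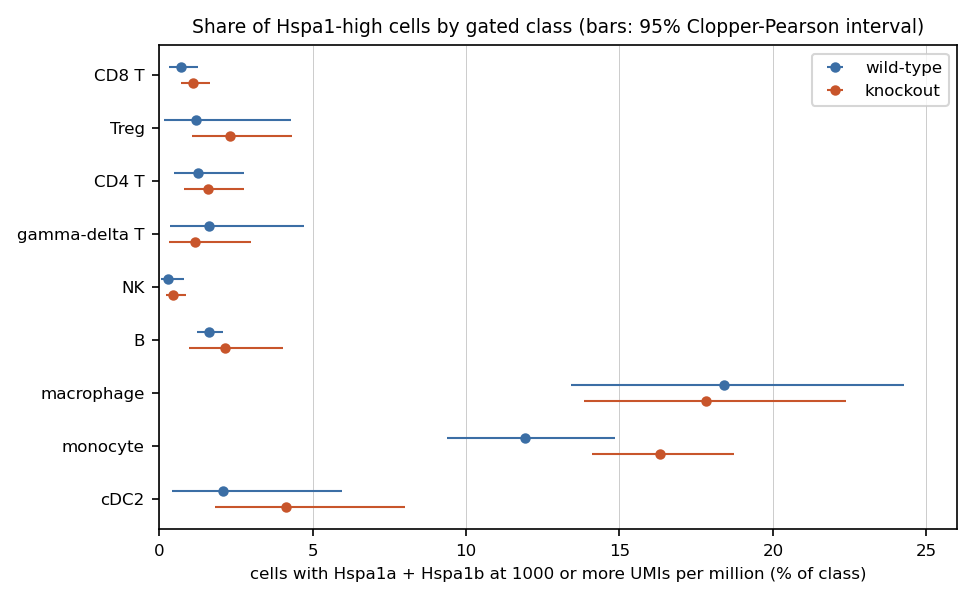
Percentage of cells of each gated class with Hspa1a and Hspa1b together at 1000 CPM or more, by library, with 95% Clopper-Pearson intervals. Macrophages and monocytes lie between 11.9% and 18.4%, cDC2 at 2.08% in WT and 4.15% in KO, and every lymphocyte gate at or below 2.31%.

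The other members were higher in the same cells. In Hspa1-high lymphocytes Dnajb1 stood at 469.7 CPM in WT and 401.7 in KO, against 45.8 and 49.1 in other lymphocytes, log2 3.36 [3.13, 3.57] and 3.03 [2.81, 3.24]. Hsph1 was higher by 3.18 and 2.81, Hsp90aa1 by 2.46 and 2.14, and Dnaja1 by 1.72 and 1.25. Hspa8 was higher by 0.96 and 0.58. Hspd1 was higher by 1.03 [0.75, 1.30] in WT, and in KO its ratio was 0.25 with an interval that included 0. In macrophage, monocyte and cDC2 gates together Hsph1 was higher in high cells by 2.61 and 2.86, Hsp90aa1 by 1.95 and 2.05, Dnaja1 by 1.24 and 1.56, and Dnajb1 by 1.35 and 1.80. These cells were chosen on Hspa1a and Hspa1b alone, and cells of 1 library are not replicates. The pools differ in make-up. B cells were 56 of the 80 high lymphocytes in WT and 9 of the 66 in KO, and CD8 T cells 10 and 23. Monocytes were 68 of 110 and 168 of 235 high cells of the myeloid pool. Levels differ between gates, so these ratios mix class with the high state and are not compared between libraries.

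Other chaperone and immediate-early genes did not all follow. The HSP70 co-chaperone Bag3 was higher in high cells in both gates and libraries, by 2.89 and 2.40 in lymphocytes and 1.18 and 1.35 in myeloid cells. Dnajb4, a J-domain protein, was higher by 1.56 and 1.34 and by 1.59 and 2.36. For the HSP90 co-chaperone Stip1 the ratios were 0.40 and 0.06 in lymphocytes and 0.06 and -0.16 in myeloid cells, all with intervals that included 0. Chordc1, which also binds HSP90, stood at 0.78 and -0.04 in lymphocytes and at -0.55 and -0.38 in myeloid cells. Cacybp stood at 0.71 and 0.20 in lymphocytes and -0.25 and -0.70 in myeloid cells. The immediate-early gene Jun, which responds to many stimuli and to tissue handling, was higher by 2.69 and 2.77 in lymphocytes and 1.18 and 1.52 in myeloid cells. Fos and Egr1 were higher in high lymphocytes (Fos 1.88 and 1.61, Egr1 1.71 and 0.70), while in myeloid cells Fos stood at -0.34 and 0.18 and Egr1 at -0.98 and 0.01. Atf3, another gene of this kind, was higher by 2.48 and 5.28 in lymphocytes and 1.40 and 1.45 in myeloid cells. The pools mix classes in the same way, and the part of tissue handling in these values was not tested.

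**Figure D4:**
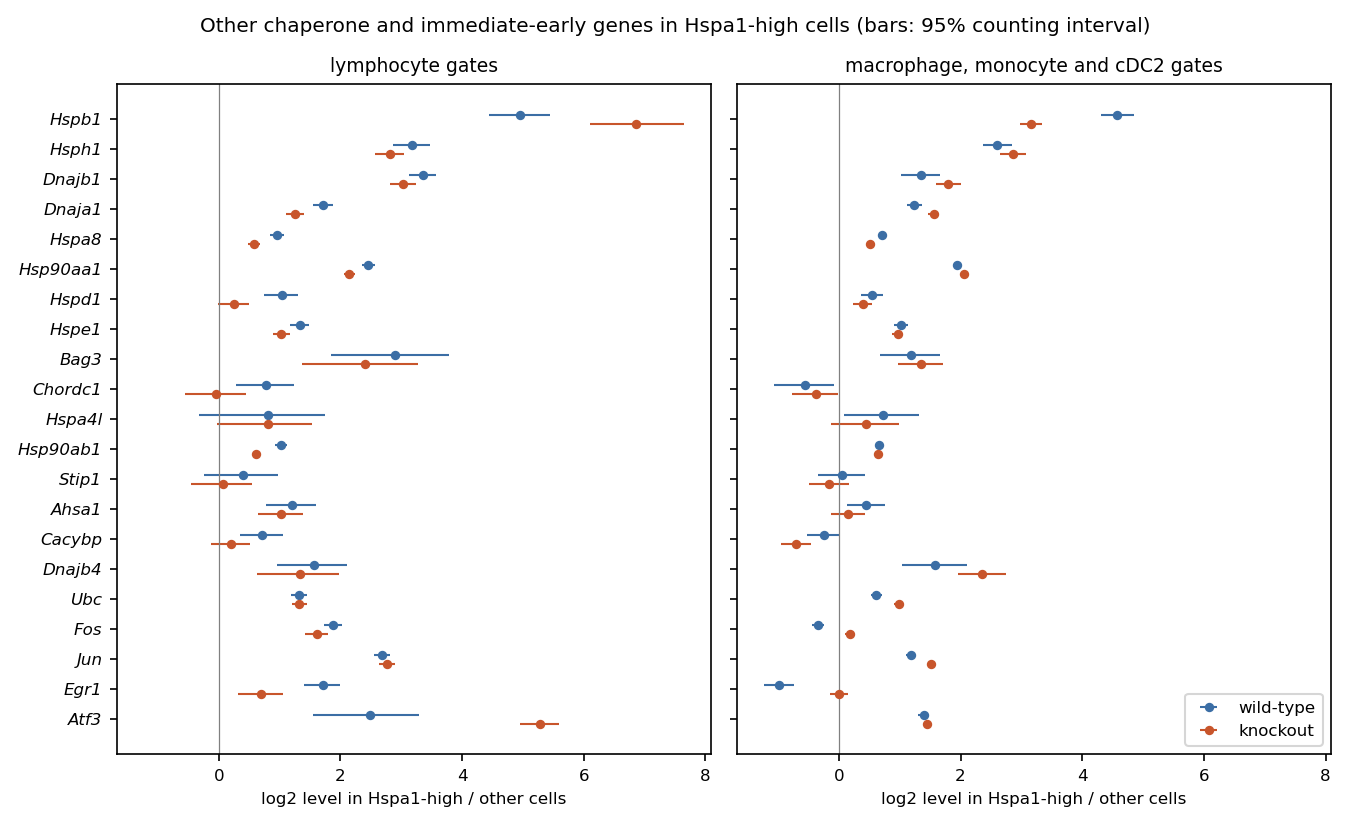
Log2 ratio of the level in Hspa1-high cells over other cells for members and related genes not used to choose the cells, in lymphocyte gates and in macrophage, monocyte and cDC2 gates, by library with 95% counting intervals. Hsph1, Dnajb1, Dnaja1, Hsp90aa1, Bag3, Dnajb4 and Jun lie above 0 in both gate groups of both libraries, whereas Fos and Egr1 do so in lymphocytes and lie between -0.98 and 0.18 in myeloid cells.

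Hspb1 (chr5:135887919-135889563, plus strand) encodes a small heat shock protein that holds clients in a soluble state. Among the compared classes it was highest in macrophages, at 123.5 CPM in WT and 97.1 in KO (log2 -0.35 [-0.53, -0.16]), but only 18 of 212 and 18 of 331 macrophages held a UMI and 1 cell held 33.5% and 38.7% of them. In 4 of 9 classes there were too few UMIs to compare. Monocytes had the largest ratio of any member in the compared classes, 26 UMIs (4.48 CPM) in WT and 460 UMIs (50.1 CPM) in KO, log2 3.49 [2.92, 4.11]. The UMIs came from 1.05% of WT and 1.85% of KO monocytes, and 1 cell held 61.5% of the WT and 34.3% of the KO UMIs. Without the top cells the ratio was 4.26, and without the 1% of cells with the highest member share 2.03 [1.43, 2.69]. With Leiden clusters in place of the gates it was 0.85 [0.70, 1.01], and 0.94 [0.77, 1.12] without two-lineage cells; the call held in all 14 settings. In CD8 T cells Hspb1 was lower, at 9.21 and 2.05 CPM (-2.17 [-2.69, -1.66]), but a single wild-type cell with 105 Hspb1 UMIs and no Hspa1a or Hspa1b UMI held 90.5% of them. Without the top cells that ratio was 0.10 [-1.02, 1.30]. In cDC2 it was -1.97 [-2.73, -1.26], with 69.0% of the WT UMIs in 1 cell, and -1.03 [-2.14, 0.02] without the top cells.

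Hsph1 (chr5:149614287-149636376, minus strand) encodes HSP110, the nucleotide exchange factor of HSP70. It was higher in KO in the 3 alpha-beta T-cell gates, at 38.8 CPM in WT and 58.8 in KO CD8 T cells (log2 0.60 [0.45, 0.75]), 32.5 and 51.2 in Treg cells (0.66 [0.22, 1.12]) and 24.9 and 43.1 in CD4 T cells (0.79 [0.36, 1.24]). No single cell held more than 7.41% of the UMIs in these gates. The CD8 ratio lies just past the size rule and passed it in 4 of 14 settings; centred on the median ratio of all genes in the class (0.10) it was 0.50. The CD4 ratio passed in all 14 settings and the Treg ratio in 9. Gamma-delta T cells had -0.64 [-1.14, -0.14], with 39.7% of the WT UMIs in 1 cell, and -0.17 without the top cells. Macrophages had 71.5 CPM in WT and 49.2 in KO, -0.54 [-0.79, -0.29], just inside 1.5-fold.

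Dnajb1 (chr8:83608193-83612653, plus strand), a J-domain partner of inducible HSP70, was not past the size rule in any of the 9 classes. Its ratios ran from -0.51 [-0.83, -0.19] in Treg cells, at 82.7 and 58.0 CPM, to 0.52 [0.08, 0.97] in cDC2, at 38.4 and 55.2 CPM. It stood at 48.3 CPM in WT and 49.2 in KO CD8 T cells, 0.03 [-0.12, 0.17], beside the ratio of 2.07 for Hspa1a. Dnaja1 (chr4:40722150-40737149, plus strand, overlapping Smu1 and Gm6297 on the other strand), another J-domain protein, had a ratio above 0 in all 9 classes, from 0.07 [-0.05, 0.18] in macrophages to 0.60 [0.42, 0.78] in cDC2. It passed the rule only in cDC2, at 224.8 CPM in WT and 341.1 in KO. In CD4 T cells it stood at 235.6 and 347.3 CPM, 0.56 [0.42, 0.70], just short of 1.5-fold. Thinned shares of CD4 T cells with a Dnaja1 UMI were 35.2% and 43.8%, and unthinned 64.9% and 74.5%, at median depths of 4730.5 and 4712 UMIs. B cells, the lowest class, had thinned shares of 25.3% and 37.9% at 3332 and 3457.5 UMIs.

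Hspa8 (chr9:40800984-40810087, plus strand) encodes the constitutive HSP70, and Hsp90aa1 (chr12:110690605-110702728, minus strand) the inducible form of cytosolic HSP90. Hspa8 was found in nearly every cell outside the B gate, with 92.7% or more of cells holding a UMI in the other 8 classes and 67.1% and 80.7% of B cells. Among the 9 compared classes it was highest in monocytes and macrophages, at 1502 and 1485 CPM in WT and 1715 and 1755 in KO, and lowest in B cells, at 388.6 and 497.4. Its ratios were above 0 in all 9 classes, from 0.01 [-0.10, 0.12] in gamma-delta T cells to 0.36 [0.26, 0.46] in B cells, and none passed the size rule. Hsp90aa1 passed it only in CD8 T cells, at 392.5 CPM in WT and 613.7 in KO, log2 0.65 [0.60, 0.69]. Elsewhere it ran from -0.33 [-0.50, -0.15] in gamma-delta T cells, where 1 wild-type cell held 33.3% of the UMIs, to 0.43 [0.29, 0.56] in CD4 T cells. In macrophages it was level, at 793.0 and 809.6 CPM (0.03 [-0.04, 0.10]).

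Hspd1 (chr1:55077835-55088243, minus strand) encodes mitochondrial HSP60 and Hspe1 (chr1:55088132-55091307, plus strand) its lid. The 2 genes overlap by 112 bases at their starts on opposite strands and share the element printed above. In CD8 T cells Hspd1 stood at 192.1 CPM in WT and 316.6 in KO (log2 0.72 [0.65, 0.79]) and Hspe1 at 465.1 and 548.0 (0.24 [0.19, 0.28]). In cDC2 Hspd1 stood at 102.4 and 163.7 CPM (0.68 [0.42, 0.94]) and Hspe1 at 335.0 and 411.4 (0.30 [0.15, 0.45]). In gamma-delta T cells Hspd1 was lower, at 213.3 and 130.6 CPM (-0.71 [-0.96, -0.45]), with 47.3% of the WT UMIs in 1 cell and -0.04 without the top cells. Hspe1 passed the size rule in none of the 9 classes and ran from -0.28 in gamma-delta T cells to 0.30 in cDC2.

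In CD8 T and Treg cells Hsp90aa1 and Hspd1 were higher in cycling cells. Cells with a UMI of Mki67 or Top2a, genes of dividing cells, made up 24.9% of WT and 34.6% of KO CD8 T cells, 357 of 1432 and 722 of 2085. Hspd1 stood at 319.2 CPM in cycling and 110.7 in other WT CD8 T cells (log2 1.53 [1.41, 1.65]) and at 431.7 and 149.1 in KO (1.53 [1.45, 1.62]). Hsp90aa1 stood at 596.2 and 262.0 in WT (1.19 [1.10, 1.27]) and 800.7 and 341.5 in KO (1.23 [1.17, 1.29]). Hsph1 was higher in cycling cells by 0.80 and 0.75 and Dnajb1 stayed level at 0.07 and -0.06. Treg cells had Hspd1 higher in cycling cells by 1.67 and 1.18 and Hsp90aa1 by 1.44 and 1.07. Not every class and library followed. Hsp90aa1 stood at 0.35 in WT and -0.97 [-1.39, -0.58] in KO B cells, and at 0.28 and -0.12 [-0.21, -0.03] in macrophages. In gamma-delta T cells it stood at 1.96 in WT and -0.21 [-0.56, 0.12] in KO. There Hspd1 stood at 2.44 and -0.41 [-0.98, 0.12]. Hspd1 was also higher in cycling NK cells (0.64 and 0.42), CD4 T cells (0.53 and 0.55), macrophages (0.83 and 0.68) and monocytes (1.23 and 0.75). Its ratios were 0.14 [-0.29, 0.55] and -0.05 [-0.75, 0.59] in B cells and 0.25 [-0.34, 0.81] and 0.61 [0.20, 0.99] in cDC2. Among CD8 T cells without either UMI the KO over WT ratios were 0.43 [0.30, 0.55] for Hspd1, 0.38 [0.30, 0.46] for Hsp90aa1 and 0.48 [0.24, 0.72] for Hsph1, all short of 1.5-fold, and 1.10 [0.71, 1.49] for Hspa1a and 0.77 [0.34, 1.21] for Hspa1b, past it. Of 10 listed proliferation genes 9 were higher in KO CD8 T cells, beside 7.39% of all genes. Their median was 0.84, beside 0.10 over all genes, and their part in the member ratios was not tested.

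**Figure D5:**
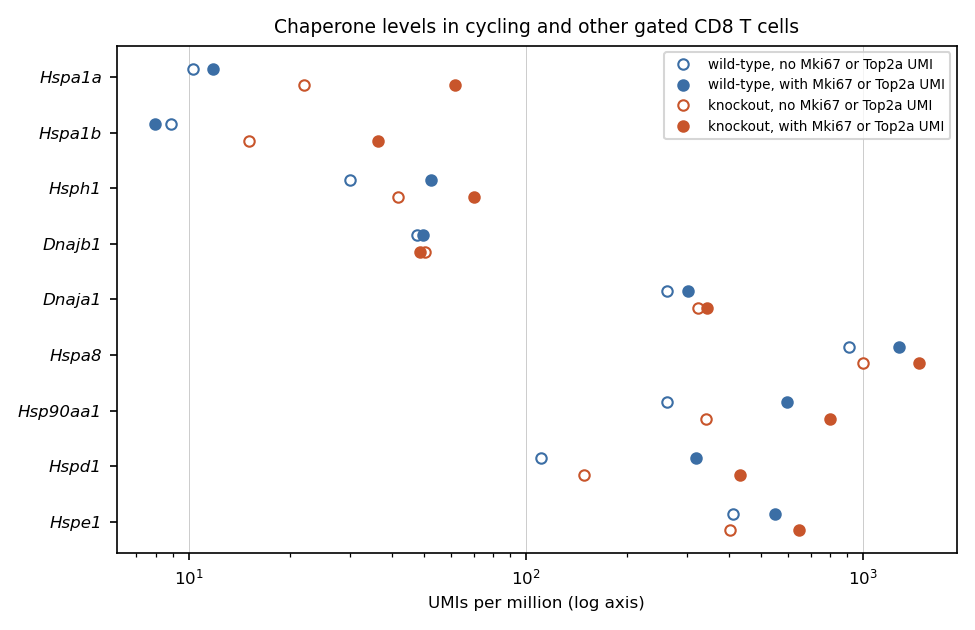
Level of 9 members in gated CD8 T cells with (filled) and without (open) a UMI of Mki67 or Top2a, in CPM on a log axis, by library. Hspd1 and Hsp90aa1 are higher in cycling cells of both libraries, and Dnajb1 is alike in all 4 groups; Hspb1, with 116 and 46 UMIs mostly in single cells, is not drawn.

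The 6 stress-inducible members (Hspa1a, Hspa1b, Hspb1, Hsph1, Dnajb1 and Dnaja1) were summed to set lymphocytes beside macrophages. The sum stood at 394.0 CPM in WT and 519.9 in KO CD8 T cells, log2 0.40 [0.35, 0.45]. In NK cells it stood at 376.3 and 437.5 (0.22 [0.15, 0.29]) and in B cells at 311.8 and 366.1 (0.23 [0.12, 0.35]). Macrophages had 1223 CPM in WT and 1109 in KO, -0.14 [-0.20, -0.09]. All 4 ratios lay inside 1.5-fold. Different genes carried these sums. Dnaja1 stood at 278.4 CPM in WT and 336.4 in KO CD8 T cells, 256.8 and 319.7 in NK cells and 159.0 and 199.8 in B cells. In macrophages Dnaja1 stood at 261.6 and 274.3, and Hspa1a with Hspa1b at 731.6 and 642.4. The ratio of Hspa1a with Hspa1b was 1.92 in CD8 T, -0.03 [-0.29, 0.23] in NK and 0.03 [-0.22, 0.26] in B cells. The macrophage ratio turned to 0.04 with every cell weighted alike, to 0.03 in thinned cells and to 0.19 [0.12, 0.26] without cycling cells, so its sign depended on how cells were weighted and chosen. The CD8 sign also depended on the cells kept, with a ratio of -0.55 [-0.74, -0.35] under stricter gates, which left 90 and 159 cells. The B ratio was level, at -0.0069 [-0.15, 0.13], with a mitochondrial share of at most 5%. The NK ratio stayed above 0, from 0.17 centred on the median gene to 0.35 with Leiden clusters. Treg cells had 0.23, CD4 T cells 0.56, gamma-delta T cells -0.01 and cDC2 -0.28. Monocytes, the C1q-poor myeloid gate, had 882.6 and 1234 CPM, 0.48 [0.44, 0.53], on the same side as the alpha-beta T cells. In CD8 T cells 9 of 10 measured members had a ratio above 0, with a median of 0.44 beside 0.10 over all genes. In macrophages 4 of 10 did, with a median of -0.10 beside 0.00 over all genes.

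Of 91 other chaperone and co-chaperone genes in 8 lists, 9 of 85 measured were higher in KO CD8 T cells (10.6%, beside 7.39% of all genes) and 1 was lower, beside 4.32%. The higher ones included the endoplasmic reticulum chaperones Hsp90b1 (286.3 and 462.0 CPM, log2 0.69 [0.64, 0.75]) and Calr (234.6 and 359.0, 0.61 [0.55, 0.68]), the TRiC subunit Tcp1 (0.59) and the mitochondrial HSP90 Trap1 (0.59). Dnajb4 was the lower one (15.2 and 9.32 CPM, -0.71). The median of the 85 was 0.34, beside 0.10 over all genes. NK cells had 0 of 85 in either direction, beside 2.29% and 1.5% of all genes, and macrophages 0 higher and 1 lower of 82, Bag5, a regulator of HSP70 (23.8 and 15.4 CPM, -0.63), beside 2.85% and 3.52%. Monocytes had 1 higher and 1 lower of 82 (beside 3.52% and 4.37%), gamma-delta T cells 1 and 0 of 79 (2.68% and 2.78%), and cDC2 3 and 1 of 80 (4.9% and 2.59%). Treg cells had 3 and 0 of 81, among them the HSP90 co-chaperone Fkbp5 (0.80), beside 2.69% and 2.35%, and CD4 T cells 2 and 1 of 82, beside 5.55% and 1.93%.

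In the B gate 13 of 81 were higher (16.0%, beside 4.85% of all genes) and 2 lower (2.47%, beside 7.53%), and 11 of the 13 were among 14 endoplasmic reticulum chaperones. Hsp90b1 stood at 234.2 CPM in WT and 1332 in KO (2.51 [2.43, 2.58]), and Sdf2l1 (2.93), Creld2 (2.88) and Manf (2.07) were also higher. Plasma-cell genes moved with them, since Jchain stood at 439.9 and 10239 CPM and Mzb1 at 402.2 and 1275. Cells with at least 10 Jchain UMIs made up 0.259% of WT and 5% of KO B-gate cells, 9 of 3474 and 21 of 420. A calculation added on seeing this dropped those cells and put Hsp90b1 at 186.5 and 201.3 CPM. The other genes were not recomputed this way, and none of the 10 members passed the size rule in this gate.

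Heat shock factors were counted at low levels. Hsf2 was higher in KO CD8 T cells (5.96 and 9.10 CPM, 0.61 [0.22, 1.01]). It was lower in B cells (-1.32 [-2.98, -0.04]) and cDC2 (-1.28 [-2.61, -0.05]), with intervals that barely excluded 0. These 2 calls rest on few UMIs, 79 in WT and 5 in KO B cells and 18 and 9 in cDC2. The 20 immediate-early genes had medians of -0.12 in CD8 T cells, -0.05 in NK cells, -0.11 in macrophages and 0.06 in monocytes, with 1, 1, 0 and 0 higher and 3, 2, 0 and 0 lower. Over all genes 7.39% were higher and 4.32% lower in CD8 T cells and 2.29% and 1.5% in NK cells. The shares were 2.85% and 3.52% in macrophages and 3.52% and 4.37% in monocytes. In KO CD8 T cells Klf2 (-1.04), Socs3 (-0.69) and Nr4a1 (-0.63) were lower and Atf3 (1.32) higher.

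Over the 9 classes, the genes whose KO over WT ratios were most like those of the stress-inducible sum were Slc35a3 (Pearson r 0.97), Rgs1 (0.92), Isca2 (0.92), Tchp (0.92) and Larp4 (0.91), out of 7255 genes. Over the 18 levels of 9 classes by library they were Ccdc115 (0.96), Atp6v1a (0.95), Spg21 (0.95), Adam8 (0.95) and Cstb (0.95). The points share libraries, depth and class totals.

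RNA of other cells also differed between the libraries. The 5 erythroid markers summed to 407.2 CPM in WT and 2.14 in KO CD8 T cells, 811.1 and 3.54 in NK cells and 1562 and 6.48 in macrophages, with none of the 5 at 0 in these wild-type gates. The difference was not alike in all gates. B cells had 684.8 and 5.07 CPM and monocytes 933.6 and 446.4. Treg cells had 18.3 and 2.17, CD4 T cells 18.4 and 0.743, gamma-delta T cells 6.56 and 3.02 and cDC2 12.2 and 1.84. The 10 melanoma markers summed to between 0.662 and 179.5 CPM over all 13 gates, with 179.5 in WT and 93.5 in KO macrophages, where Gpnmb, also made by macrophages, accounted for 132.1 and 55.7. Fibroblast and endothelial markers summed to 21.4 and 14.6 CPM in CD8 T cells and 42.1 and 7.25 in macrophages, with 4 or 5 of 8 at 0. In monocytes 9 of 10 interferon-response genes were higher in KO, beside 3.52% of all genes. Their median was 1.08, beside -0.06 over all genes. Median mitochondrial shares were 3.41% and 3.16% in CD8 T cells, 2.36% and 2.42% in macrophages and 2.60% and 2.49% in monocytes. The part of these differences in the chaperone values was not tested.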

How the data were processed

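UMI counts per gene and cell barcode were used as the authors deposited them, whole numbers with no normalization. Cell Ranger, STAR and mm10 are named per the submitters' processing notes, Cell Ranger 5.0.0 per the file headers and Chromium 3' v3.1 per the series design. Which annotation and strand setting the counting used, no source here gives. Cells with at least 500 genes, 1000 UMIs and at most 10% mitochondrial UMIs were kept. Classes came from gates on lineage genes, and cells in more than 1 lineage were left out as possible doublets. UMIs were summed per class and library and divided by the class total. Ratios carry exact conditional binomial 95% intervals and shares exact Clopper-Pearson intervals, and no test was made with 1 library per genotype. The floor for a count of 0 was 3 UMIs. All 10 members are named. From each other list up to 4 called genes per class could be named, those whose interval lay farthest from equality, and as most alike the 5 genes with the highest Pearson r. Members and lists were chosen with earlier results of these data known. On simulated counts of 11704 genes 198 of 200 2-fold changes were recovered, with 137 false calls. These counts were independent draws without cells, so the rates do not carry over to smaller classes or to genes held by few cells. Scanpy 1.11.5, scipy 1.17.1 and numpy 2.4.6 were used, and positions came from GENCODE M21 (GRCm38), which placed 32158 of 32285 features. In all, 12 planned and 3 added alternatives were tried.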

Additional observations from a re-analysis of the deposited data

Results flagged for a closer look

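5 members passed the size rule in opposite directions in different classes. The difference between classes was not tested, and with 1 library per genotype it cannot be. Log2 ratios of knockout over wild-type for Hspa1a were 2.07 in CD8 T cells, -2.10 in gamma-delta T cells and -1.27 in cDC2. For Hspa1b they were 1.71 in CD8 T, 1.02 in Treg, 1.06 in CD4 T, -1.97 in gamma-delta T, 0.68 in monocyte and -1.02 in cDC2 gates. For Hspb1 they were -2.17 in CD8 T cells, 3.49 in monocytes and -1.97 in cDC2. For Hsph1 they were 0.60 in CD8 T, 0.66 in Treg, 0.79 in CD4 T and -0.64 in gamma-delta T cells. For Hspd1 they were 0.72 in CD8 T cells, -0.71 in gamma-delta T cells and 0.68 in cDC2. Without the cell with the most UMIs in each library, the single lower call left was Hspa1a in gamma-delta T cells (-1.49).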

How the results depend on the processing

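Of 1148 member ratios recomputed under 14 alternatives, 884 stayed inside their counting interval, 247 moved beyond their counting interval and 17 called ratios turned. No paired analysis was possible because each genotype has 1 library. For the summed stress-inducible members, values outside the main interval were as follows. In CD8 T cells (main 0.40) they were 0.26 with Leiden clusters, 0.29 with clusters without two-lineage cells, 0.34 without the highest Scrublet scores, 0.35 without mitochondrial and ribosomal genes in the scale, 0.30 centred on the median gene, 0.52 thinned, 0.30 without the 1% of cells with the highest member share, -0.55 with stricter gates and 0.34 without cycling cells. In NK cells (0.22) they were 0.35 with either cluster setting, 0.32 with equal weight, 0.31 thinned, 0.34 with stricter gates and 0.33 without cycling cells. In B cells (0.23) they were 0.35 with clusters, 0.40 centred, 0.50 with equal weight, 0.46 thinned, -0.0069 at a mitochondrial share of at most 5% and 0.37 without the top 1%. In macrophages (-0.14) they were 0.45 with clusters, -0.24 by Scrublet, 0.0415 with equal weight, 0.0276 thinned, -0.0596 at most 5% mitochondrial and 0.19 without cycling cells. The macrophage cluster was 85.7% two-lineage cells, and stricter gates left 90 and 159 CD8 T cells and too few macrophages for a value.

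Members called higher (13) were 8 with clusters without two-lineage cells and 9 with stricter gates or thinned cells. Members called lower (8) were 4 with either cluster setting, 5 thinned, 2 without the top 1%, 2 with stricter gates, 3 without cycling cells and 1 without the top cell. Some settings covered fewer classes. Clusters without two-lineage cells had no macrophages or cDC2, and stricter gates left 3 and 5 cDC2 and 10 and 22 gamma-delta T cells. The cDC2 gate held 2 of the higher and 3 of the lower main calls. Values that turned were, in cDC2, Hspa1a at 0.26 with clusters, 0.65 without the top 1%, 1.10 without cycling cells and 0.82 without the top cell, Hspa1b at 0.0524, 0.62, 1.38 and 0.95 under the same, and Hspb1 at 1.32 with clusters. In gamma-delta T cells Hspd1 turned to 0.26 with either cluster setting and 0.22 without cycling cells, Hsph1 to 0.0182 without cycling cells and Hspa1a to 0.62 without the top 1%. Hspb1 in CD8 T cells turned to 0.10 without the top cell, and with stricter gates Hsph1 turned to -0.52 in CD8 T and -0.014 in Treg cells. The causes were not tested. The top-cell, member-free scale and two-lineage-free cluster settings were chosen after seeing the data, as was the minimum of 30 cells for a value. Hspb1 had under 20 UMIs in 4 classes, where no ratio was formed.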
